A study of Mus musculus with 12 samples.

Results

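The genes described here encode intraflagellar transport, the BBSome and the transition zone of the cilium. They were the protein-coding genes of the deposited feature table whose symbols begin with Ift, Bbs, Tctn or Nphp followed by a digit, together with Wdr19, Wdr34, Wdr35, Wdr60, Cluap1, Traf3ip1, Mks1 and Cep290. This rule gave 35 of 55450 genes, and all 35 passed the filter on low counts. By complex, 5 were of the retrograde transport complex IFT-A, 7 of the core and 6 of the peripheral part of the anterograde complex IFT-B, and 2 were intermediate chains of the motor dynein-2. A further 6 were BBSome subunits, 2 were chaperonin-like BBS genes and 7 were transition zone genes.

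Intraflagellar transport carries building material along the microtubules of a growing cilium or flagellum. IFT-B trains are moved outwards by kinesin-2, and IFT-A trains return with dynein-2. The BBSome is a coat of BBS proteins that rides these trains and moves membrane proteins out of the cilium, and the transition zone is the gate at the ciliary base. In the testis these proteins are known for the sperm tail, which is built in spermatids after meiosis. Most cells measured here were spermatocytes at the pachytene stage of meiosis, when homologous chromosomes are paired. Cells classed by the authors as pre-meiotic were also kept, and made up as much as 46.2% of a library.

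The series compared testis germ cells of C57BL/6 mice that were wild type or carried Zfp541-/-, a loss of the zinc finger gene Zfp541. All mice, wild type included, had their germ cells synchronised. From 2 days after birth they were fed WIN 18,446, an inhibitor of retinoic acid synthesis, for 7 days, and were then injected with retinoic acid. Testes were taken 260 h later for early pachytene or 360 h later for late pachytene, which gave 4 groups of 3 libraries: wild type at 260 h, knockout at 260 h, wild type at 360 h and knockout at 360 h. Single cells were picked by mouth pipette, and their cDNA was barcoded, pooled and read at its 3′ end with unique molecular identifiers (UMIs), which mark single molecules. Whether each library of a group had its own animals is not stated, so the p-values reflect the spread from library to library, which may be technical.

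The 12 libraries held 50 to 94 kept cells and 3601518 to 27202665 gene UMIs each, from 929 of 1152 barcodes, and every library used the same 96 barcode sequences. Levels are given as CPM, the UMIs of a gene per 1e6 gene UMIs of the library after TMM scaling, and are listed in the order of libraries 1, 2 and 3. Levels within single clusters, given further below, had no TMM scaling. Zfp541 itself was at 38.1, 84.1 and 129 CPM in wild type and 123, 99.1 and 75.8 in knockout at 260 h, and at 199.8, 178 and 169.6 CPM in wild type and 156, 130.5 and 151 in knockout at 360 h. The sources used here do not give which bases were deleted, so UMIs from the 3′ end of that gene do not check the genotype. Summed markers of pachytene cells (10 genes) were at 3046, 4484 and 3191 CPM in wild type and 2309, 2515 and 1677 in knockout at 260 h, without overlap, and ranged from 5843 to 9293 in wild type and from 4997 to 6577 in knockout at 360 h. Taken singly at 260 h, Ldhc (1228, 1595 and 776 in wild type, 711, 613 and 383 in knockout) and Pgk2 did not overlap, while the other markers of this list did. Spermatogonial markers (8 genes) ranged from 486 to 932 at 260 h, from 69.6 to 222 in wild type at 360 h and from 182 to 622 in knockout at 360 h.

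Some libraries stood apart. Of the 5 k-means clusters in the authors' cell table, wild-type libraries 1 and 2 of 260 h had 25 and 56 cells in cluster 2. Wild-type library 3 of 260 h had 72 cells in cluster 3, which also held 59, 50 and 32 cells of the 3 knockout libraries of that time. Wild type at 360 h lay mostly in cluster 5 (83, 91 and 93 cells) and knockout at 360 h in cluster 4 (77, 66 and 77 cells). Cluster 1, the pre-meiotic cells, held 16.2% to 46.2% of the cells of wild type and 28.0% to 36.0% of knockout at 260 h, against 1.06% to 2.35% and 0% to 11.3% at 360 h. Wild-type library 3 of 360 h had spermatid markers (8 genes) at a sum of 258 CPM, against 19.6 and 23.7 in the other wild-type libraries of that time. Leydig markers (6 genes) summed to 104 and 66.2 CPM in wild-type libraries 1 and 2 of 260 h and to 9.43 to 24.9 in the other 10 libraries. Among these markers Insl3 was at 0 in 10 of the 12 libraries, and among the 8 macrophage and blood markers C1qb and C1qc were each at 0 in 5.

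These libraries also ordered the transport genes. Wild-type library 1 of 260 h was the lowest of its group for 30 of the 35 genes, against 40.1% of all genes tested. Knockout library 3 of 260 h was the lowest of its group for 29, against 42.3% of all genes. Knockout library 1 of 360 h, which had no pre-meiotic cell, was the highest of its group for 25 of the 35, against 38.0% of all genes. Each library is a sum over its cells, so these sums do not tell fewer cells that express a gene from less RNA per cell. Counts of single cells were not read for that question.

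Transcription of many cilium genes is known to depend on RFX factors, which bind the X-box, a pair of inverted arms in promoters. The promoters of RefSeq (build GRCm38.p6, 250 bases before to 50 after the gene start) held 30 of the 35 genes, and Ift80, Ift81 and Ift122 were among those with no entry. An X-box was found in 4 of these 30 (13.3%), Tctn1, Ift57, Bbs1 and Tctn3, and in 1.75% of the promoters of all 27025 genes in the table. The search used both strands and allowed up to 3 bases between the arms. Their windows of 30 bases are shown because these letters are what the motif search found, with the X-box in capitals, written on the strand of the gene. Tctn1, Bbs1 and Tctn3 lie on the minus strand and Ift57, which held 2 X-boxes, on the plus strand.
Tctn1, chr5:122264411-122264440: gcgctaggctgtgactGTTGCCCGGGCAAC
Ift57, chr16:49699199-49699228: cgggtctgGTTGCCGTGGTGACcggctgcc
Ift57, chr16:49699226-49699255: gccctgcgGTTGCCTGGTAACggtggggac
Bbs1, chr19:4906605-4906634: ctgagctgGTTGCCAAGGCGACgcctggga
Tctn3, chr19:40612350-40612379: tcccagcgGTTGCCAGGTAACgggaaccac

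The X-box arm GTTGCC alone, or its reverse complement, was in 14 of the 30 promoters (46.7%), against 14.1% of all genes in the table. It overlaps the X-box, and all 4 genes with an X-box were among the 14. Ift140, Ift172 and Ift27, transport genes whose levels rose with time in both genotypes, carried the arm without an X-box, and their windows have the arm in capitals. The other 5 genes that rose in both genotypes, Ift20, Ift22, Ift43, Ift46 and Ift52, had neither the arm nor an X-box in their windows. Ift140 lies on the plus strand, and Ift172 and Ift27 on the minus strand.
Ift140, chr17:25015965-25015994: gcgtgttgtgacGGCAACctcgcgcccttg
Ift172, chr5:31291097-31291126: tgtcgcactcacGTTGCCtgtgcgtcagcg
Ift27, chr15:78174073-78174102: gggttgatgatgGTTGCCaggagcctgttt

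Ift43 and Wdr19, the 2 genes called between the genotypes at 260 h, had neither the X-box nor the arm in their windows. Their upstream stretches of 150 bases on the plus strand are shown for that reason, with CCAAT or its reverse complement ATTGG in capitals. The CCAAT motif was in 17 of the 30 promoters (56.7%) and in 41.1% of all genes' promoters. Ift43 had none in its promoter window. These matches are letters in a window and do not show binding.
Ift43, chr12:86082391-86082540: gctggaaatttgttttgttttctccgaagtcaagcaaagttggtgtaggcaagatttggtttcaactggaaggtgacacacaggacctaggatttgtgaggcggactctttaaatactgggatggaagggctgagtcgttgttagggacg
Wdr19, chr5:65199546-65199695: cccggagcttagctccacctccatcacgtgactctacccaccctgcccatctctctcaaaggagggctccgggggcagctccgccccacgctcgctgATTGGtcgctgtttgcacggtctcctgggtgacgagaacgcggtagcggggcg

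In early pachytene the question was which of these genes differed without Zfp541. Wdr19 and Ift43, both subunits of IFT-A, were lower in knockout at 260 h, and no other of the 35 genes was called. DESeq2's Wald test called 9 of the 35, all lower. The calls reported here were made at a Benjamini-Hochberg adjusted p under 0.05 over 20279 genes with edgeR's quasi-likelihood test. The 2 called genes are 5.71% of the 35, against 1.89% of all genes tested, and 1.31% of all genes were called lower. At an unadjusted p under 0.05 there were 14 of the 35. The share of all genes was not taken at that threshold, nor for DESeq2 or the other alternatives. Those counts therefore have no background here. The median log2 fold change of the 35 was −0.48, against −0.01 over all genes, and 31 of the 35 had a value below 0. The summed pachytene markers given above were also lower in all 3 knockout libraries of 260 h, though singly only Ldhc and Pgk2 did not overlap. The part of these markers in the differences was not tested.

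Wdr19 encodes a large subunit of IFT-A and lies at chromosome 5, 65199696 to 65260415, plus strand (mm10). It was at 57.2, 81.6 and 73.2 CPM in wild type and at 27.1, 29.4 and 26.8 in knockout. All 3 knockout libraries lay below all 3 wild-type libraries, and close to each other. The group values were 27.8 ± 1.45 in knockout and 70.7 ± 12.4 in wild type (SD, n = 3 each), a log2 fold change of −1.35 ± 0.25 (SE; adjusted p = 0.00924). Ift43 encodes a small IFT-A subunit and lies at chromosome 12, 86082541 to 86162459, plus strand. It was at 175, 199.9 and 148 CPM in wild type and at 84.5, 84.96 and 50.03 in knockout. The groups did not overlap, and knockout library 3 was the lowest of the 6. Its log2 fold change was −1.25 ± 0.27 (adjusted p = 0.0248).

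**Figure D1:**
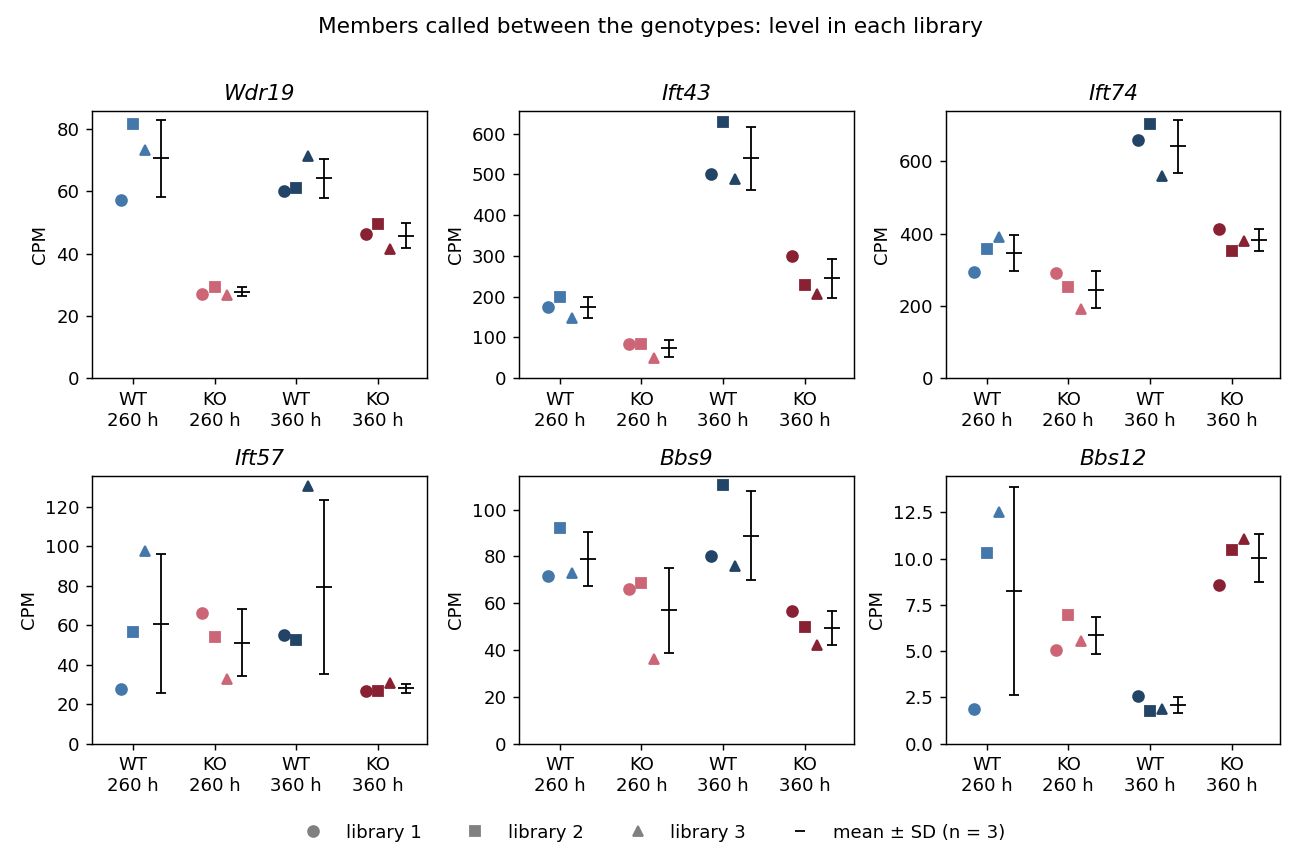
Level in CPM (vertical axis, from 0, a scale of its own in each panel) of the 6 genes called between the genotypes, by group (horizontal axis), with 1 symbol per library and the mean ± SD of the 3 libraries beside it. Wdr19 and Ift43 are lower in knockout at 260 h without overlap, Ift43, Ift74, Ift57 and Bbs9 are lower in knockout at 360 h, and Bbs12 is higher there. The SD bars of Ift57 in wild type are wide, with library 3 the highest at each time.

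The other 3 IFT-A genes had values on the same side without a call. Wdr35, another large IFT-A subunit, was at 236, 322 and 312 CPM in wild type and 159.8, 205 and 119 in knockout. Its groups did not overlap, with a log2 fold change of −0.84 ± 0.25 (adjusted p = 0.111). Ift140 and Ift122 had −0.65 and −0.48, with overlapping libraries.

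Of the transition zone genes, Mks1, whose product belongs to the Meckel syndrome module of the gate, came nearest to a call. It was at 29.1, 36.6 and 50.8 CPM in wild type and 17.8, 18.3 and 15.9 in knockout, with no overlap, and its log2 fold change was −1.17 ± 0.29 (adjusted p = 0.0523). Tctn3, a tectonic gene of the same gate, was at 24.8, 34.5 and 28.97 CPM in wild type and 17.8, 14.4 and 18.3 in knockout, also without overlap (−0.81 ± 0.28, adjusted p = 0.190). In the BBSome all 6 values were below 0, from −1.12 for Bbs1 to −0.11 for Bbs4. Both dynein-2 chains, Wdr34 and Wdr60, were near 0 (−0.07 and −0.01).

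Without overlap of the 3 against 3 libraries, 13 of the 35 genes were lower in knockout at 260 h and 0 higher, against 7.34% and 7.25% of all genes tested. These 13 were Wdr19, Wdr35 and Ift43 of IFT-A, Ift74, Ift22 and Ift27 of the IFT-B core, Ift172 and Ift80 of its periphery, Bbs5, Bbs7 and Bbs9 of the BBSome, and Mks1 and Tctn3.

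The calls at 260 h were lost without some single libraries, while the fold changes moved little. Without wild-type library 2, Wdr19 was at −1.31 (adjusted p = 0.0649) and Ift43 at −1.21 (0.141). Without knockout library 1 they were at −1.42 (0.0526) and −1.44 (0.0693), and Ift43 without knockout library 3 was at −1.08 (0.0635), while 6 of the 35 were called, all lower, without wild-type library 1. With wild-type library 3 alone, the wild-type library whose cells share cluster 3 with the knockout, neither gene was called, at log2 fold changes of −1.53 for Wdr19 (adjusted p = 0.0837) and −1.13 for Ift43 (adjusted p = 0.289), and scaling by spike-in UMIs also left 0 calls, at −1.67 and −1.52.

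Values within single clusters, in CPM of the cluster's own gene UMIs without TMM scaling, do not depend on how many cells each cluster held. They are a description with no test, since the clusters were made from the same cells' gene values. Such counts were not taken over all genes, so those below have no background to be read against. The comparison in cluster 3 rests on wild-type library 3 alone. In cluster 3 at 260 h, all 3 knockout libraries lay below wild-type library 3 for 23 of the 35 genes, above it for 4 (Ift46, Ift140 and Ift20 among them) and on both sides for 8. Wdr19 was there at 83.6 CPM in wild-type library 3 and at 35.7 to 39.5 in knockout, Ift43 at 161 and 65.7 to 99.97, and Mks1 at 58.7 and 23.5 to 24.9. In the pre-meiotic cluster 1 the 3 knockout libraries lay below the 3 wild-type libraries for 16 genes, above them for 1 and overlapped for 18. Ift43 was among the 16, at 116 to 169.9 CPM in wild type and 70.7 to 76.95 in knockout, and Wdr19 among the 18, at 23.4 to 55.7 and 9.34 to 29.8.

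In late pachytene, at 360 h, 5 of the 35 genes were called between the genotypes. Ift43, Ift57, Ift74 and Bbs9 were lower in knockout and Bbs12 was higher. This is 14.3% of the 35, against 22.5% of all genes tested, of which 13.5% were lower and 8.93% higher, so the share of these genes was not above the background. The median log2 fold change of the 35 was −0.21, against 0.03 over all genes, and 26 of the 35 had a value below 0. Without overlap 9 were lower and 3 higher, where 24.6% and 19.6% of all genes were.

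Ift43 was at 501, 627 and 489.5 CPM in wild type and at 299.6, 229 and 207 in knockout. Every knockout library was below every wild-type library, as at 260 h. The log2 fold change was −1.14 ± 0.26 (adjusted p = 0.00579), and Ift43 was the only gene of the 35 called at both times. The other 4 IFT-A genes had values from −0.55 (Ift122) to −0.17 (Wdr35) without a call.

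Of IFT-B, Ift74, whose protein pairs with that of Ift81 to bind tubulin, lies at chromosome 4, 94614491 to 94693229, plus strand. Wild type had 661, 703 and 561 CPM and knockout 414, 353 and 380.01. The groups did not overlap, and the log2 fold change was −0.75 ± 0.23 (adjusted p = 0.0303). Ift81 itself was at 193 ± 28.2 and 189.6 ± 13.8 (SD, n = 3 each), a log2 fold change of −0.02 ± 0.25 (adjusted p = 0.955).

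Ift57, a peripheral IFT-B subunit, lies at chromosome 16, 49699233 to 49765126, plus strand. It was at 55.3, 52.6 and 130.4 CPM in wild type and 26.8, 26.9 and 30.8 in knockout. All knockout libraries were lower, and wild-type library 3, the one with the highest spermatid markers, was above the other 2 by more than 2-fold. Its log2 fold change was −1.50 ± 0.44 (adjusted p = 0.0232), and −0.95 (adjusted p = 0.143) without that library. The part of spermatid RNA in this difference was not tested. Both dynein-2 chains had their highest wild-type level in the same library. Wdr60 was at 169, 145 and 434 CPM in wild type and 169, 72.3 and 91.9 in knockout (−1.17 ± 0.46, adjusted p = 0.0815) and Wdr34 at 94.1, 78.3 and 144 and, in knockout, 71.9, 45.3 and 61.7 (−0.82 ± 0.40, adjusted p = 0.160), neither called.

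Bbs9 encodes a BBSome subunit and lies at chromosome 9, 22475715 to 22888280, plus strand. It was at 80.2, 111 and 75.8 CPM in wild type and 56.6, 49.7 and 42.3 in knockout, without overlap, and its log2 fold change was −0.84 ± 0.29 (adjusted p = 0.0455). The other 5 BBSome genes lay between −0.26 (Bbs7) and 0.09 (Bbs1), with none called.

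Bbs12, a chaperonin-like gene whose product helps to assemble the BBSome, lies at chromosome 3, 37312554 to 37321453, plus strand. It had 28, 19 and 42 UMIs in the wild-type libraries and 68, 102 and 122 in the knockout libraries at 360 h. As levels these were 2.57, 1.79 and 1.86 CPM in wild type and 8.57, 10.5 and 11.1 in knockout, so that all 3 knockout libraries were more than 3-fold above the highest wild-type one. The log2 fold change was 2.27 ± 0.59 (adjusted p = 0.0118). Bbs12 shares 32 exonic bases with Cetn4, a centrin gene on the opposite strand, and the sources used here do not give whether reads were counted by strand. Cetn4 was at 508, 556 and 660.3 CPM in wild type and 342, 217 and 201 in knockout, where it was lower. Exonic bases shared with other genes were also found for genes including Tctn1, Bbs4, Cep290, Ift88, Cluap1 and Ift57, whose counts are uncertain to that extent.

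The transition zone genes had no call at 360 h. Cep290, which links the gate to the membrane, was at 389 ± 67.3 and 490.1 ± 67.6 (0.33 ± 0.25, adjusted p = 0.374).

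At 360 h the calls also moved with single libraries. Bbs12 alone was called without knockout library 3 (Ift43 then at adjusted p = 0.0648), Bbs12 and Ift43 without knockout library 2, and 3 genes without wild-type library 1 or 2 of 360 h, wild-type library 2 or 3 of 260 h or knockout library 1 or 2 of 260 h. Bbs12 lost its call without wild-type library 2 (0.0581) and with spike-in scaling (0.107), which called 0 higher and 5 lower, and Ift74 and Bbs9 lost theirs in 10 and 15 of 22 alternatives.

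**Figure D2:**
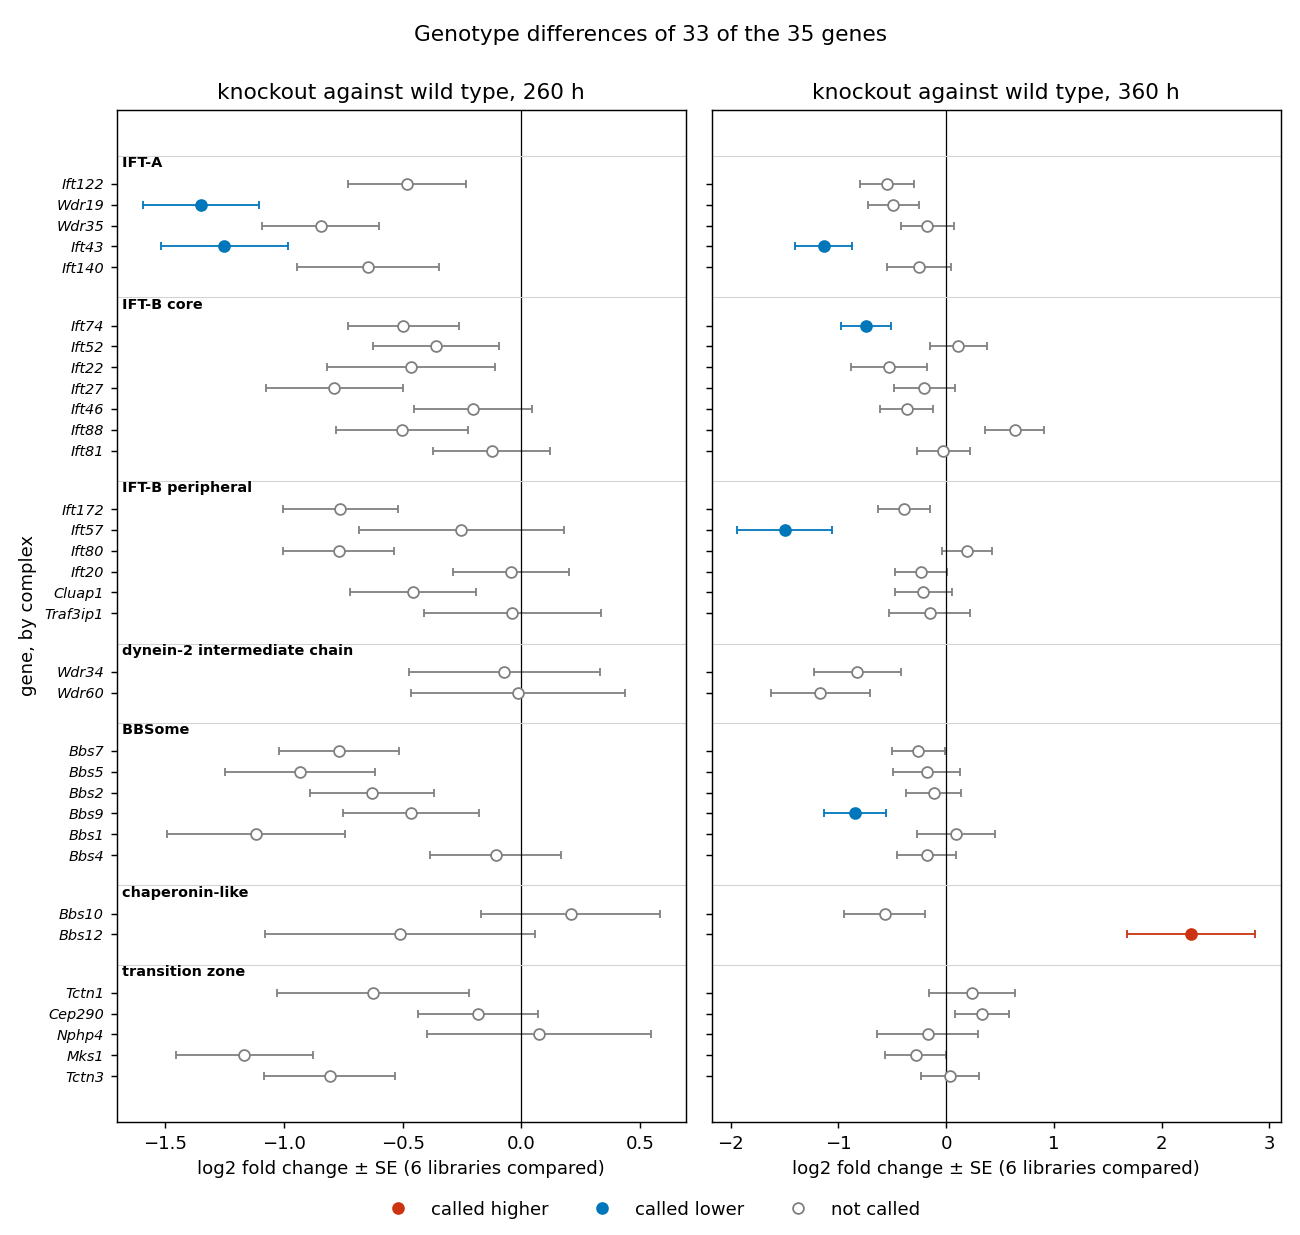
Log2 fold change of knockout against wild type (horizontal axis, ± SE of the fit) for 33 of the 35 genes (vertical axis, by complex) at 260 h (left) and 360 h (right), on a scale of its own in each panel. Filled points are called, in blue lower and in red higher, and open points are not called. At 260 h most points lie left of 0 and 2 are called. At 360 h most points also lie left of 0, and the values range from −1.50 for Ift57 to 2.27 for Bbs12.

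The comparison of 360 h with 260 h asked how these genes change from early to late pachytene. In wild type 11 of the 35 rose and 3 fell (9 and 0 with spike-in scaling), and in knockout 16 rose and 0 fell (8 and 0 with spike-in scaling). In wild type this is 40.0% of the 35 against 39.9% of all genes tested, with 31.4% higher (all genes 20.9%) and 8.57% lower (all genes 18.9%). In knockout it is 45.7% against 23.5% of all genes, of which 13.3% were higher and 10.2% lower. The median log2 fold change of the 35 was 0.38 in wild type (all genes −0.10) and 0.64 in knockout (all genes −0.15). Without overlap 13 were higher and 2 lower in wild type (all genes 26.4% and 24.2%), and 21 higher and 3 lower in knockout (all genes 22.9% and 23.1%). Ift140, Ift172, Ift20, Ift22, Ift27, Ift43, Ift46 and Ift52 rose in both genotypes, which is 8 of 11 and 8 of 16.

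Pre-meiotic cells, in which most of these genes were low, took a smaller share of the cells at 360 h than at 260 h, in ranges given above. With those cells left out, 5 rose and 4 fell in wild type, with a median of 0.09 (all genes −0.05), and 11 rose and 3 fell in knockout, with a median of 0.41 (all genes −0.02). The share of all genes called was not taken for such alternatives, so their counts have no background here. Against wild-type library 3 of 260 h alone, 3 rose and 2 fell in wild type. Among the calls lost in at least 10 of 22 alternatives were those of Cluap1 (17), Ift122 (14) and Ift27 (11) in wild type and of Wdr19 (15) and Ift20 (11) in knockout.

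Ift140, a large subunit of IFT-A, had the largest rise of the 35 in each genotype. It was at 89.2, 161 and 75.3 CPM in wild type at 260 h and 477, 472 and 340.3 at 360 h, and in knockout at 78.6, 75.4 and 53.9 at 260 h and 439.9, 307 and 338 at 360 h. Every library of 360 h was above every one of 260 h in each genotype. The log2 fold changes were 1.98 ± 0.31 in wild type (adjusted p = 1.78e-04) and 2.38 ± 0.31 in knockout (adjusted p = 1.02e-04), and both calls held in all 22 alternatives. Ift43, from the levels above, rose by 1.63 ± 0.27 (adjusted p = 2.73e-04) and 1.74 ± 0.27 (adjusted p = 3.65e-04), with both calls again kept in all 22. Although lower in knockout at each time, Ift43 thus rose in both genotypes without overlap.

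The other IFT-A genes were each called in 1 genotype. Ift122 was at 156, 205 and 258 CPM in wild type at 260 h and 339.6, 387 and 262 at 360 h (0.67 ± 0.25, adjusted p = 0.0416), with no overlap but a gap of only a few CPM. In knockout it was at 159, 148 and 137 at 260 h and 259.7, 212 and 203 at 360 h (0.61 ± 0.25, adjusted p = 0.0906). Wdr35 rose in knockout, from the levels above to 324, 281 and 278 (0.87 ± 0.25, adjusted p = 0.0195), and was at 337, 365 and 295 in wild type at 360 h (0.20 ± 0.24, adjusted p = 0.551). Wdr19 rose in knockout to 46.4, 49.4 and 41.6 CPM (0.72 ± 0.24, adjusted p = 0.0421), and each of these libraries was below the wild-type libraries of 360 h, at 60.03, 61.2 and 71.5 (knockout against wild type −0.49 ± 0.24, adjusted p = 0.161). From 260 h to 360 h the wild-type change of Wdr19 was −0.14 ± 0.24 (adjusted p = 0.674).

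In the IFT-B core 5 of 7 genes rose in wild type and 5 of 7 in knockout. Ift46, whose protein is known for carrying outer dynein arms into flagella, was at 109.96, 115 and 85.8 CPM in wild type at 260 h and 332, 439.6 and 296 at 360 h. In knockout it was at 85.3, 102 and 82.2 at 260 h and 339.6, 254 and 235 at 360 h. The times did not overlap in either genotype, and the rises were 1.78 ± 0.25 (adjusted p = 8.89e-05) and 1.62 ± 0.25 (adjusted p = 3.87e-04).

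Ift22 and Ift27 encode small GTPases of the complex. Ift22 was at 183, 189.8 and 192 CPM in wild type at 260 h and 481, 616 and 296 at 360 h (1.30 ± 0.36, adjusted p = 0.00947), and in knockout at 165, 172 and 71.4 at 260 h and 461, 268 and 238 at 360 h (1.24 ± 0.36, adjusted p = 0.0210). Ift27 was at 91.04, 115 and 98.7 at 260 h and 183, 182 and 174 at 360 h in wild type (0.82 ± 0.29, adjusted p = 0.0325), and at 70.2, 73.2 and 32.5 at 260 h and 188, 136 and 145 at 360 h in knockout (1.41 ± 0.29, adjusted p = 0.00308). In both genes all libraries of 360 h were above those of 260 h, and knockout library 3 of 260 h was below all others.

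Ift52, a core scaffold subunit, was at 83.7, 87.1 and 95.1 CPM in wild type at 260 h and 175, 196 and 145 at 360 h (0.96 ± 0.27, adjusted p = 0.00998). In knockout it was at 74.5, 86.1 and 46.5 at 260 h and 227, 171 and 161 at 360 h (1.43 ± 0.27, adjusted p = 0.00157). Neither genotype had an overlap between the times. Ift74 rose in wild type (0.89 ± 0.23, adjusted p = 0.00726), from 293, 358 and 389.6 to the levels above, and was at 292, 254 and 191 in knockout at 260 h (0.64 ± 0.23, adjusted p = 0.0589). Ift88, the Polaris gene needed for cilia in most tissues, rose in knockout, from 121, 197 and 105 to 298, 276 and 233 (0.93 ± 0.28, adjusted p = 0.0253). It was at 184, 217 and 199 at 260 h and 135, 158 and 226 at 360 h in wild type (−0.21 ± 0.28, adjusted p = 0.576), with overlap. Ift81 had 0.29 and 0.39, not called in either genotype.

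Of the peripheral IFT-B genes, Ift172, Ift20 and Ift80 rose in knockout, Ift172 and Ift20 in wild type, and Cluap1 fell in wild type. Ift172, the largest subunit, was at 149.9, 180.2 and 186 CPM in wild type at 260 h and 342, 337 and 265 at 360 h (0.87 ± 0.24, adjusted p = 0.00998). In knockout it was at 117, 109.7 and 76.8 at 260 h and 279, 228 and 214 at 360 h (1.25 ± 0.24, adjusted p = 0.00208). The times did not overlap in either genotype. Ift20, which also acts at the Golgi, was at 231, 249.7 and 217 at 260 h and 396, 503 and 436 at 360 h in wild type (0.94 ± 0.25, adjusted p = 0.00747), and at 257, 270.2 and 149 at 260 h and 375, 369 and 393 at 360 h in knockout (0.75 ± 0.25, adjusted p = 0.0387). Its libraries of 360 h were above those of 260 h throughout.

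Ift80 was at 106, 117 and 91.2 CPM in knockout at 260 h and 233, 250.2 and 210.1 at 360 h (1.14 ± 0.24, adjusted p = 0.00302). Its wild-type libraries overlapped, at 137, 192 and 206 at 260 h and 228, 186 and 192 at 360 h (0.18 ± 0.23, adjusted p = 0.571). Cluap1, also named Ift38, fell in wild type from 65.03, 100.1 and 116 to 56.5, 61.02 and 52.5 (−0.73 ± 0.26, adjusted p = 0.0386). Its times did not overlap by a margin of a few CPM. In knockout it was at 79.2, 70.7 and 55.2 at 260 h and 49.4, 53.3 and 43.98 at 360 h (−0.49 ± 0.26, adjusted p = 0.200). Ift57 and Traf3ip1, and both dynein-2 chains, were not called in either genotype.

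None of the 6 BBSome genes was called between the times in wild type, and Bbs1 and Bbs7 rose in knockout. Bbs1 was at 15.2, 21.1 and 25.7 CPM in knockout at 260 h and 61.6, 64.6 and 47.97 at 360 h (1.49 ± 0.38, adjusted p = 0.0102), without overlap. In wild type it was at 20.3, 49.3 and 64.1 at 260 h and 71.03, 43.6 and 48.9 at 360 h (0.28 ± 0.37, adjusted p = 0.566), where library 1 of 260 h was far below the other 2. Bbs7 was at 46.3, 45.7 and 36.2 at 260 h and 107, 85.99 and 93.3 at 360 h in knockout (1.16 ± 0.25, adjusted p = 0.00438). Its wild-type libraries, at 52.3, 77.4 and 88.6 at 260 h and 119.6, 115 and 107 at 360 h, did not overlap either, with a change that just missed the threshold (0.64 ± 0.25, adjusted p = 0.0517).

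Of the chaperonin-like genes, Bbs12 fell with time in wild type. It was at 1.89, 10.3 and 12.5 CPM at 260 h, from 8, 58 and 172 UMIs, and at the 360 h levels given above. Library 1 of 260 h lay among the libraries of 360 h, so the times overlapped, at a log2 fold change of −2.01 ± 0.59 (adjusted p = 0.0135). In knockout it was at 5.05, 6.98 and 5.56 at 260 h, below all 3 libraries of 360 h (0.77 ± 0.57, adjusted p = 0.348). Bbs10 was not called in any comparison.

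Of the transition zone genes, Mks1 and Tctn3 rose in knockout. Mks1 rose to 48.3, 41.3 and 38.5 CPM at 360 h (1.30 ± 0.29, adjusted p = 0.00491). This gene was at 63.97, 44.9 and 46.98 in wild type at that time (0.41 ± 0.28, adjusted p = 0.259), where the times overlapped. Tctn3 rose in knockout to 51.3, 39.4 and 42.98 (1.40 ± 0.28, adjusted p = 0.00227), and was at 43.7, 48.8 and 37.7 in wild type (0.56 ± 0.27, adjusted p = 0.114). Both genes had knockout levels at 260 h below every other library and overlapped the wild type at 360 h. Tctn1, Cep290 and Nphp4 were not called in any comparison.

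**Figure D3:**
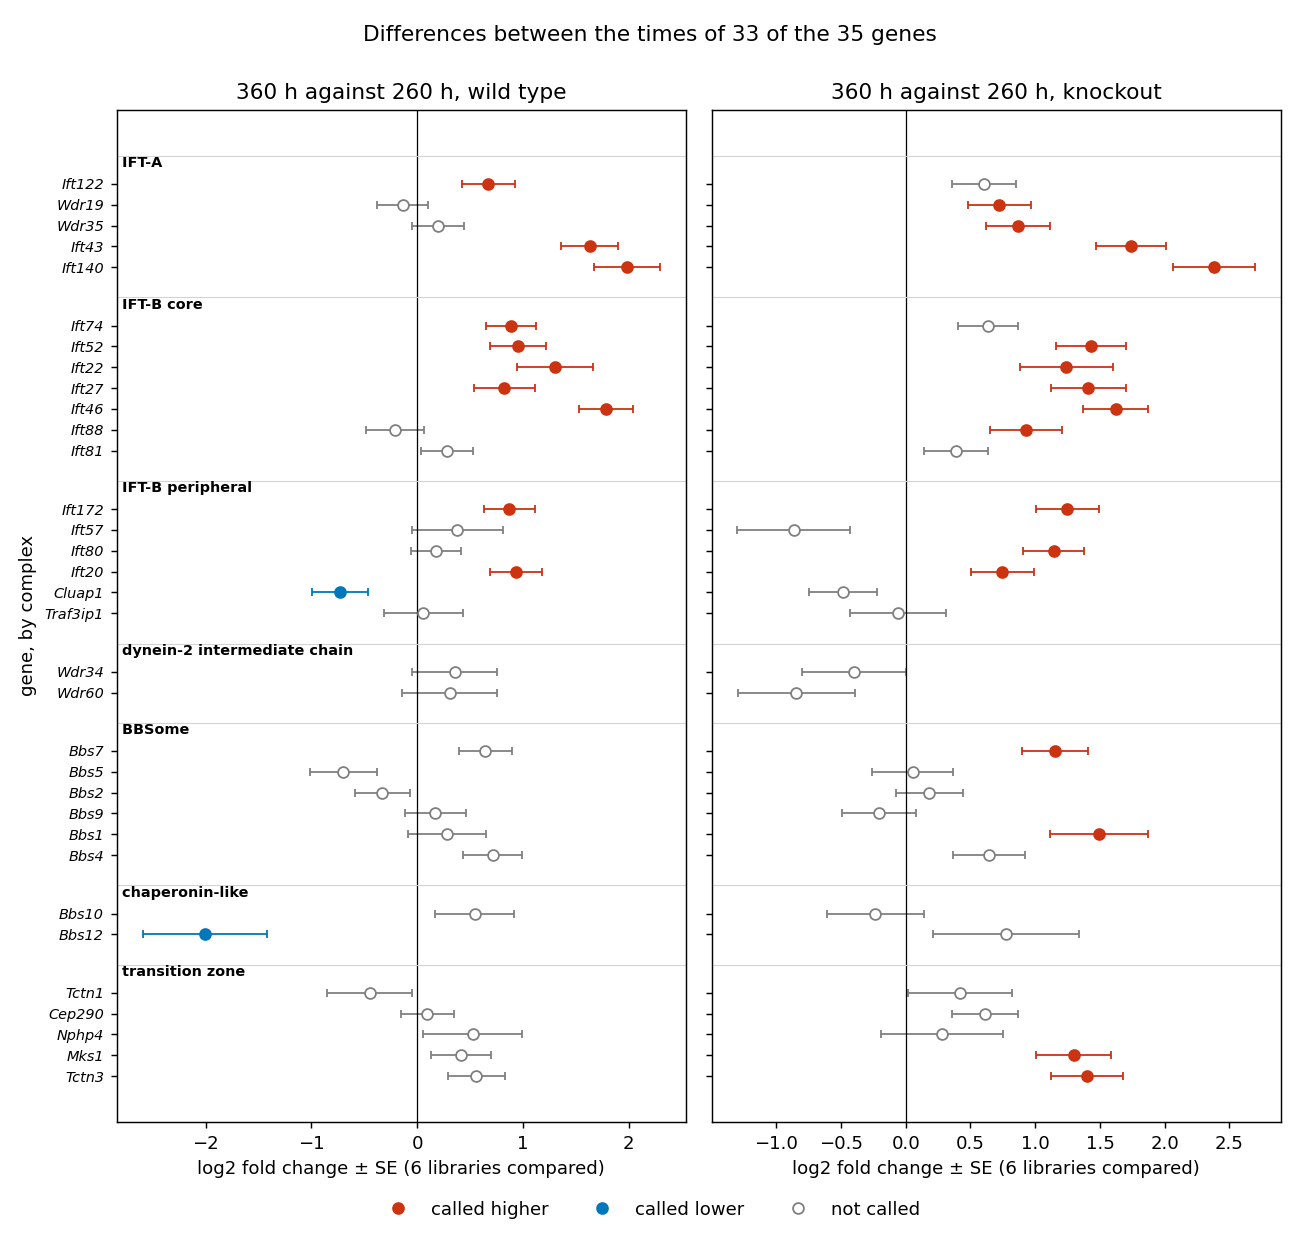
Log2 fold change of 360 h against 260 h (horizontal axis, ± SE of the fit) for 33 of the 35 genes (vertical axis, by complex) in wild type (left) and knockout (right), on a scale of its own in each panel. Filled points are called, in red higher and in blue lower, and open points are not called. Ift140 has the highest value in both panels, at 1.98 and 2.38.

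A rise called in 1 genotype and not in the other does not show that the genotypes differ, so the change of the genotype effect from 260 h to 360 h was tested for each gene. With edgeR 0 of the 35 passed, against 5.08% of all genes tested (2.3% higher and 2.78% lower), with 8 of the 35 at an unadjusted p under 0.05. The share of all genes at that unadjusted threshold was not taken. DESeq2's Wald test called 2, Bbs12 and Ift80, both upwards. In edgeR the difference of Bbs12 was 2.78 ± 0.82 (adjusted p = 0.0617), from −0.51 at 260 h to 2.27 at 360 h. That of Ift80 was 0.97 ± 0.33 (adjusted p = 0.105), and that of Ift88 1.14 ± 0.39 (adjusted p = 0.109). Wdr19, called at 260 h alone, had 0.86 ± 0.34 (adjusted p = 0.162), and Ift43 0.11 ± 0.37 (adjusted p = 0.904).

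Across the authors' 5 clusters the levels are a description, given as the mean ± SD over libraries with at least 5 cells in the cluster, in CPM of the cluster's own gene UMIs. These levels had no TMM scaling, so they can order the groups differently from the library levels above. With TMM, Ift140 at 360 h was at 430 ± 77.5 in wild type and 362 ± 69.6 in knockout, but its cluster mean was higher in cluster 4, which is knockout. Peaks were not counted with TMM scaling. In pre-meiotic cluster 1 (8 libraries) 28 of the 35 genes had their lowest mean. The highest mean was in cluster 3 for 12 genes, in cluster 4 for 12, in cluster 5 for 6, in cluster 2 for 4 and in cluster 1 for 1. Cluster 2 includes knockout library 2 of 360 h with only 5 cells there, in which many of these genes were low. With cluster 2 taken from its wild-type libraries alone, an alternative added after seeing the data, 10 genes peaked in cluster 2, 8 in cluster 3, 10 in cluster 4, 6 in cluster 5 and 1 in cluster 1. Bbs2, Bbs5, Bbs9, Cluap1, Ift80, Ift88 and Mks1 then had their highest mean in cluster 2, and Cep290 left it for cluster 4. Cluster 5 is wild type at 360 h and cluster 4 knockout at 360 h (3 libraries each), so these clusters cannot be told apart from the groups.

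Genes of 1 complex peaked in different clusters. Ift43 was highest in cluster 5, at 427 ± 22.3 CPM against 248 ± 25.9 in cluster 4, 104 ± 41.1 in cluster 3 and 119.8 ± 44.1 in cluster 1. Ift140 was at 369 ± 33.7 in cluster 4 and 342 ± 59.03 in cluster 5, within the spread of each other, against 89.9 ± 7.57 in cluster 3. Wdr19 was instead highest in cluster 2, which is mostly wild type at 260 h, at 99.8 and 101 in its wild-type libraries and 31.1 in knockout library 2 of 360 h, against 51.5 ± 7.60 in cluster 5.

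Among IFT-B genes, Ift88 was at 278 ± 24.8 CPM in cluster 4 and 139 ± 42.7 in cluster 5, and Ift80 at 239 ± 32.2 and 162 ± 28.9. Ift57 had the reverse order, at 28.8 ± 4.22 in cluster 4 and 64.5 ± 38.5 in cluster 5, with its highest mean of 83.4 ± 22.5 in cluster 3. Cluster 3, the pachytene cells of 260 h in the knockout and in wild-type library 3, also held the highest means of both dynein-2 chains, with Wdr60 at 291 ± 38.8.

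BBSome genes divided in the same way. Bbs5 was at 49.2 ± 19.97 CPM in cluster 3 and 24.6 ± 6.74 in cluster 5, and Bbs2 at 86.1 ± 23.5 and 54.1 ± 7.79. Bbs7 was at 73.1 ± 18.9 and 91.1 ± 9.14, Bbs1 at 40.8 ± 24.4 and 43.9 ± 14.4, and Bbs4 at 27.6 ± 5.94 and 32.4 ± 4.14. Cluster 3 mixes the genotypes, with Bbs7 at 101.1 in wild-type library 3 and 60.4 to 67.01 in knockout, and Bbs1 at 74.5 and 20.9 to 43.0. In cluster 5 Bbs1 ranged from 31.3 to 59.6, below wild-type library 3 of cluster 3. In cluster 5, which is wild type, Bbs7 ranged from 83.02 to 101.0, without TMM scaling. Within wild type this sets 1 library of cluster 3 against cluster 5. With TMM and over all kept cells, the wild-type libraries had Bbs7 at 52.3, 77.4 and 88.6 at 260 h. At 360 h they were higher, at 119.6, 115 and 107. Bbs12 was the 1 gene with its highest mean in cluster 1, at 10.7 ± 7.37, level with 10.7 ± 9.83 in cluster 2, and it was at 1.56 ± 0.460 in cluster 5.

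**Figure D4:**
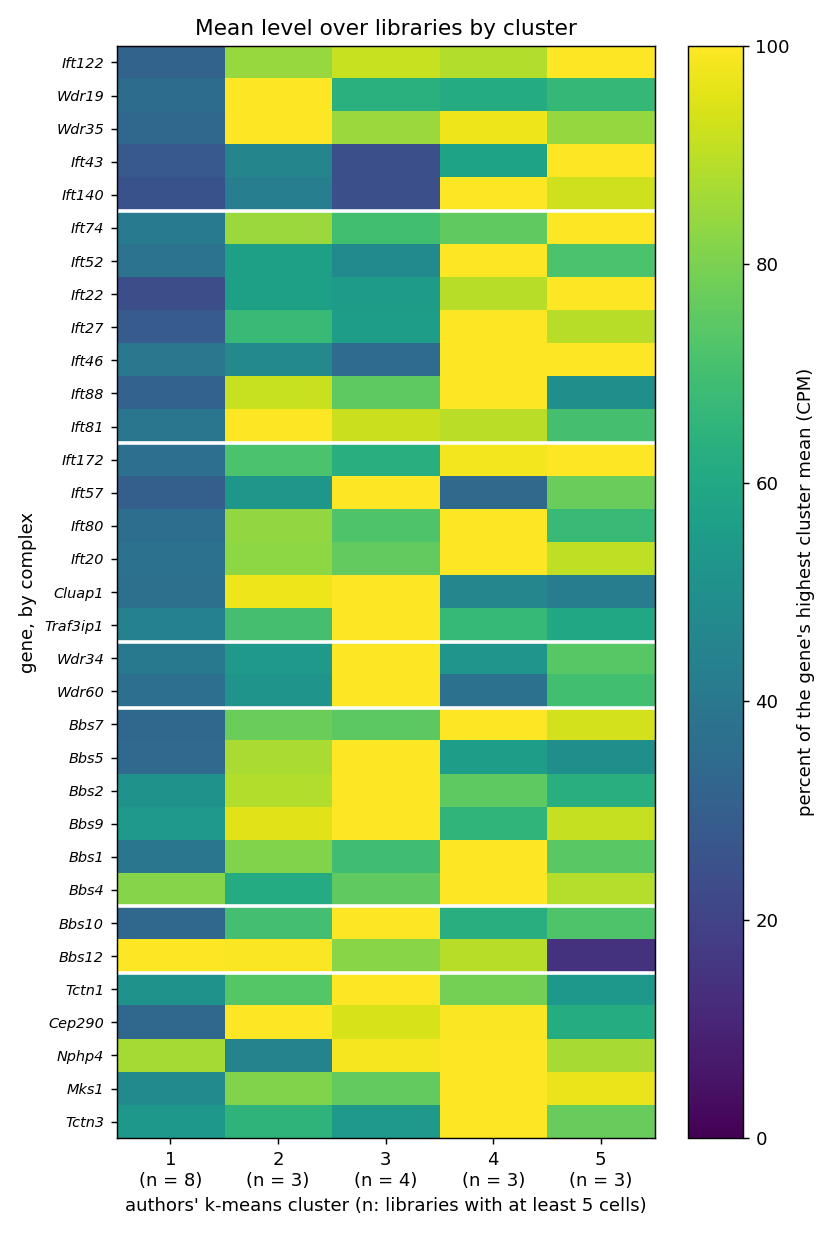
Mean CPM (without TMM scaling) over libraries of 33 of the 35 genes (rows, by complex, with white lines between complexes) in the authors' 5 clusters (columns, n libraries with at least 5 cells), as a percentage of the gene's highest cluster mean (colour bar, 0 to 100). Cluster 1 is dark for most genes, Ift43, Ift140 and Ift46 are brightest in clusters 4 and 5, and Bbs12 is dark in cluster 5.

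Further genes of the pathway were read from a list of 76 symbols in 6 classes, of which 74 were found and 73 tested. Knockout at 260 h had 5 of the 73 lower and 0 higher (6.85%), against 1.31% and 0.582% of all genes tested. At 360 h 14 were lower and 6 higher (27.4%), against 13.5% and 8.93%, and with spike-in scaling 10 were lower and 1 higher. From 260 h to 360 h 14 rose and 13 fell in wild type (13 and 3 with spike-in scaling, 21 and 10 with DESeq2's size factors), and 18 rose and 11 fell in knockout (9 and 0 with spike-in scaling). In wild type this was 19.2% and 17.8%, near the 20.9% and 18.9% of all genes tested. In knockout it was 24.7% and 15.1%, against 13.3% and 10.2% of all genes. The median log2 fold changes of the 73 in these 4 comparisons were −0.18, −0.21, 0.31 and 0.13. The test of how the genotype effect changed from 260 h to 360 h called 4 lower (Ttc30a1, Ttc30a2, Ahi1 and Cep164) and 0 higher (5.48%, against 5.08% of all genes).

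The transport class of this list held the largest difference between the genotypes, that of Ttc30a2 at 360 h. Ttc30a1 and Ttc30a2 encode copies of the IFT-B subunit IFT70, and UMIs of such near-identical copies may be split between them, so their single values are uncertain. Ttc30a1 was at 58.4, 90.3 and 100.3 CPM in wild type and 32.5, 28.2 and 17.3 in knockout at 260 h, and at 155, 134 and 126 CPM in wild type and 12.6, 15.5 and 16.05 in knockout at 360 h. Knockout was below wild type in every library at both times, with log2 fold changes of −1.67 ± 0.30 (adjusted p = 0.00730) and −3.23 ± 0.31 (adjusted p = 5.69e-06). Ttc30a2 was at 44.7, 61.5 and 38.3 CPM in wild type and 5.05, 18.5 and 5.56 in knockout at 260 h, and at 376, 518 and 279 CPM in wild type and 4.92, 10.8 and 11.8 in knockout at 360 h. It rose with time in wild type (3.02 ± 0.47) and not in knockout (−0.08 ± 0.46), and its genotype effect grew from −2.31 ± 0.47 to −5.41 ± 0.53, a difference of −3.10 ± 0.65 (adjusted p = 0.0132). Hspb11, which encodes the IFT-B subunit IFT25, partner of IFT27, was higher in knockout at 360 h, at 319, 271 and 275 against 61.1, 102 and 176 (1.35 ± 0.35, adjusted p = 0.0110). Ift27 itself was at −0.20 in that comparison (adjusted p = 0.652).

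Of the transition zone class, Rpgrip1 was lower in knockout at both times. It was at 28.8, 28.5 and 10.1 CPM in wild type and 2.39, 3.56 and 7.001 in knockout at 260 h (−2.42 ± 0.45, adjusted p = 0.0116), and at 307, 395 and 270.2 CPM in wild type and 111, 70.8 and 59.5 in knockout at 360 h (−2.01 ± 0.42, adjusted p = 0.00266). The groups did not overlap, and Rpgrip1 rose with time in each genotype, by 3.86 ± 0.45 and 4.27 ± 0.48. Ahi1, the Joubert syndrome gene of the gate, was lower in knockout at 360 h, at 179.5, 111 and 109 against 367, 347 and 690.2 (−1.81 ± 0.36, adjusted p = 0.00215). Tmem67, the fifth gene called at 260 h and named here after its values were seen, was lower in knockout at that time (−1.19 ± 0.27, adjusted p = 0.0324). Tmem107 and Tmem17, membrane proteins of the gate, were higher in knockout at 360 h, Tmem107 at 483, 360.3 and 487 against 189.7, 159 and 224 (1.21 ± 0.28, adjusted p = 0.00562). Tmem17 was at 17.3, 10.04 and 15.3 against 2.11, 1.23 and 6.28 (2.12 ± 0.59, adjusted p = 0.0172). Among the nephronophthisis genes, Anks6 was at 17.8, 8.10 and 9.34 against 0.458, 0.377 and 1.02 (4.17 ± 0.62, adjusted p = 2.20e-04), from 5, 4 and 23 UMIs in the wild-type libraries.

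Of the basal body class, Odf2 rose with time in both genotypes (1.84 ± 0.27 and 1.82 ± 0.27), and Cep164, of the distal appendages that dock the centriole, had a genotype effect that fell by 1.68 from 260 h to 360 h (adjusted p = 0.0367). Cep164 was at 157, 165 and 313 CPM in wild type and 111, 73.4 and 76.3 in knockout at 360 h, with wild-type library 3 the highest. Unc119 and Unc119b, carriers of lipid-modified cargo, and Iqcb1 fell with time in both genotypes. The changes of Unc119 were −2.61 in wild type and −1.83 in knockout, those of Unc119b −2.10 and −1.93, and those of Iqcb1 −1.88 and −0.97.

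Of the transcription class, Rfx4, an RFX factor gene, was lower in knockout at 260 h. Its levels were 36.7, 67.8 and 93.9 CPM in wild type and 28.003, 23.5 and 20.8 in knockout (−1.46 ± 0.31, adjusted p = 0.0263). The groups did not overlap, and wild-type library 1 came nearest to the knockout. Of the 9 other factors of that class tested, none was called at that time. The lowest log2 fold change of the class there was −1.80, below that of Rfx4, in a gene that was not called.

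**Figure D5:**
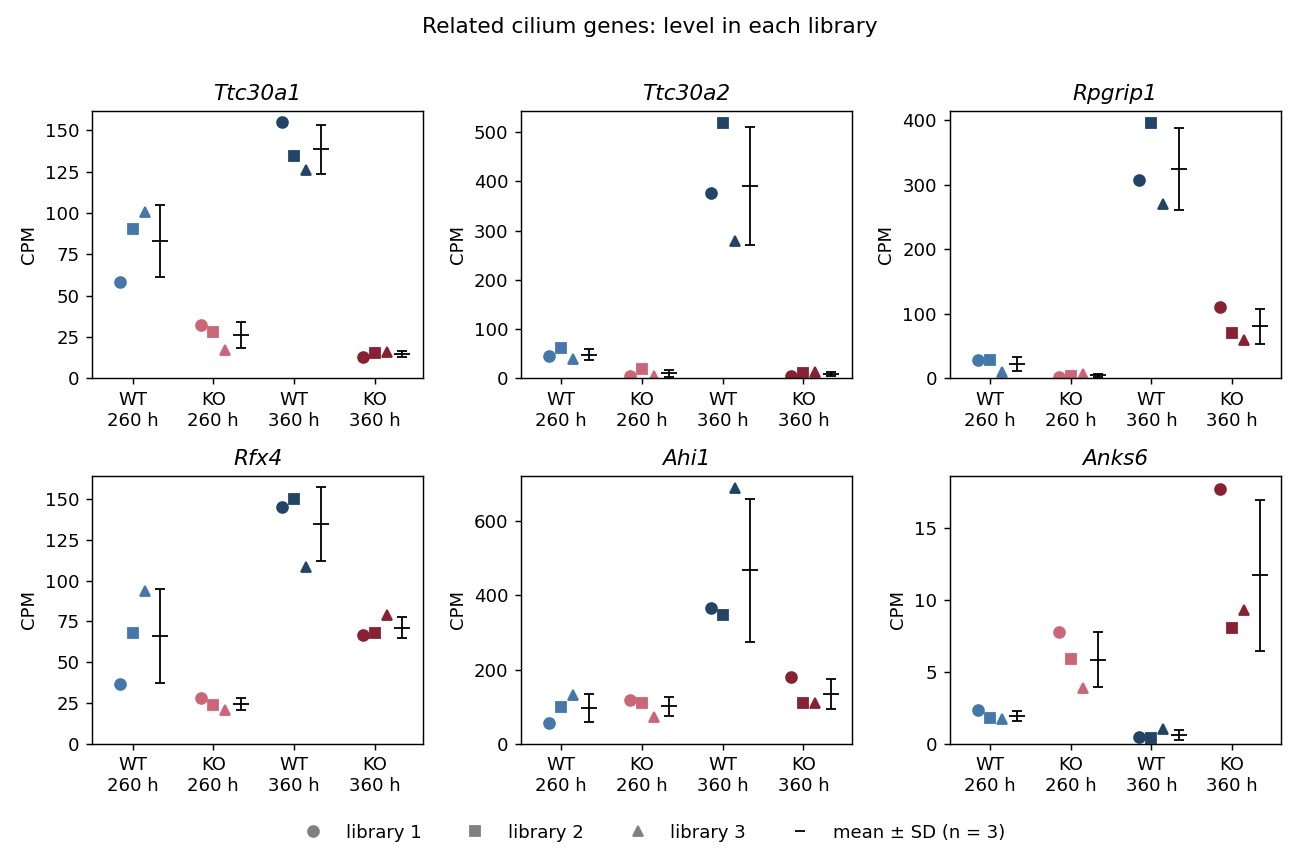
Level in CPM (vertical axis, from 0, a scale of its own in each panel) of 6 genes of the further list, by group (horizontal axis), with 1 symbol per library and the mean ± SD of the 3 libraries beside it. Ttc30a1, Ttc30a2 and Rpgrip1 are lower in knockout at both times without overlap, Rfx4 is lower at both times, Ahi1 separates the genotypes at 360 h alone, and Anks6 is higher in knockout at 360 h.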

How the data were processed

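The deposited tables hold raw UMI counts per gene and cell barcode, and cell quality and clusters came from the authors' deposited cell table. The mm10 build, featureCounts 1.6.4, STAR 2.5.3a and UMI-tools 1.0.0 are named in the submitters' processing notes, but the sources used here do not give settings or the strand of counting. The 92 spike-in sequences were left out of library sizes, and no other per-sample column was left out (0).

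Counts were summed over the kept cells of each library, since cells are not replicates. Genes were kept by filterByExpr (20279 genes), scaled by TMM and tested with the quasi-likelihood F-test of edgeR 4.0.16 (R 4.3.3, robust, two-sided) over all 12 libraries with 1 coefficient per group. The common biological coefficient of variation was 0.486. Calls needed an adjusted p (Benjamini-Hochberg) under 0.05. The scripts were tested on simulated data in which few genes were changed in knockout at 360 h. At the same threshold 3% of the 2-fold changes and 63% of the 4-fold changes were called in the simulation. In the real data 22.5% of all genes were called at 360 h, so the adjusted threshold was less strict and these shares do not carry over. Ift74 and Bbs9 were called there at log2 fold changes of −0.75 and −0.84. No 2 libraries of a group were duplicates (chi-square per degree of freedom at least 10.2). Doublets were not called, the cells having been picked by hand.

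Of the 35 genes, 2 count in all totals and medians but are not reported singly here, and 33 are plotted. The genes and lists were chosen with earlier results of these data known. Values per library are given for genes called in at least 1 of 5 contrasts, and of the further list for up to 4 called genes with the smallest p per direction between the genotypes and up to 2 otherwise. Alternatives were DESeq2 1.42.0 (size factors, Wald test), no filter, fewer libraries or cells, spike-in scaling, a replicate block and cells thinned to 40000 UMIs.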

Additional observations from a re-analysis of the deposited data

How the results depend on the processing

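Depth limits most the low genes: Bbs12 had as few as 8 UMIs in a library. With 3 libraries a group, a p that missed the threshold does not show that levels were equal. No called gene changed direction under any alternative run.

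Of the 35 genes, knockout against wild type at 260 h (2 called) gave 9 with DESeq2's Wald test, 0 with spike-in scaling and 0 to 6 when single libraries were left out. At 360 h (5 called) leaving out single libraries gave 1 to 5. Between the times, wild type (14) gave 9 without pre-meiotic cells, 9 with spike-in scaling (9 higher and 0 lower, against 11 and 3) and 10 to 16 when single libraries were left out. Knockout (16) gave 8 with spike-in scaling and 11 to 19 when single libraries were left out. The difference between the genotype effects (0) gave 1 with no filter on low counts, 2 with DESeq2's Wald test, 1 with cells thinned to equal UMIs and 0 to 3 when single libraries were left out, the 3 without wild-type library 1 of 260 h.

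Of the 73 further genes, the comparison at 260 h (5) gave 2 in a fit of the 6 libraries compared, 2 with spike-in scaling and 1 to 7 when single libraries were left out, with 1 to 3 without wild-type library 2 or 3 or any 1 knockout library of 260 h. At 360 h (20) spike-in scaling gave 11, and leaving out single libraries gave 7 to 22, with 7 without knockout library 3 and 12 or 13 without wild-type library 1 or 2 or knockout library 2 of 360 h. Between the times, wild type (27) gave 16 with spike-in scaling and 19 to 31 when single libraries were left out, and knockout (29) gave 19 with no filter on low counts, 9 with spike-in scaling and 12 to 27 when single libraries were left out, with 12 to 18 without any 1 knockout library other than library 3 of 260 h. The difference between the genotype effects (4) gave 1 with spike-in scaling and 1 to 4 when single libraries were left out, reaching 3 or more without knockout library 3 of 260 h, wild-type library 2 of 360 h or knockout library 1 of 360 h. The causes of these changes were not tested.

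An alternative chosen after seeing the data kept only library 3 of wild type at 260 h, whose lone value is assumed to vary like the other groups. For the 35 genes it gave 0 called at 260 h, 3 at 360 h, 5 between the times in wild type and 2 for the difference between the genotype effects. For the 73 genes it gave 3 at 260 h, 16 between the times in wild type and 0 for the difference.

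With spike-in scaling, the median over all genes tested (log2 fold change) went from −0.01 to −0.28 at 260 h, from 0.03 to −0.48 at 360 h, from −0.10 to 0.33 between the times in wild type and from −0.15 to 0.04 in knockout. The medians of the 35 genes became −0.85, −0.74, 0.76 and 0.85.

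Same-numbered libraries did not deviate together (r from −0.20 to 0.17), so the numbers do not pair them. With the replicate number as a block, the 35 genes had 2, 5, 12, 15 and 0 calls in the 5 comparisons. The further genes had 3 at 260 h and 1 for the difference between the genotype effects, and 18, 27 and 25 in the others.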
